A study of Mus musculus with 12 samples.

Results

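The genes followed here are those of the proteasome, the protease that degrades proteins marked with ubiquitin, in mouse liver after an injection of interferon-gamma (IFN-γ) or interleukin-6 (IL-6). Members were all probe sets of the array whose platform entry held a single gene symbol starting with Psma, Psmb, Psmc, Psmd or Psme. That rule took 53 probe sets of 42 genes, out of 12488 probe sets and 8252 single symbols on the array. They fell into 5 probe sets of 4 immunoproteasome and PA28 genes (Psmb8, Psmb9, Psmb10 and Psme1) and 46 probe sets of 36 constitutive genes. The remaining 2, Psmc3ip and Psme3ip1, share the letters of the rule but are not subunits by name. Psme2, the partner of Psme1, was represented by 2 probe sets that each carried several symbols, so it has no value here.

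The study used 12 Affymetrix arrays of total liver RNA, 2 for each of 6 groups, and all mice were killed 4 h after a cytokine or buffer was injected into the peritoneum. Control mice were albumin-cre(-) Socs3(w/fl), with 1 floxed copy of Socs3 and no Cre recombinase, and received phosphate-buffered saline (PBS) or IL-6. Socs3-deleted mice were albumin-cre(+) Socs3(-/fl), with 1 null and 1 floxed copy, and received the same injections. Their Cre is driven by the promoter of albumin, a hepatocyte gene, so other liver cells keep the floxed copy. Mice lacking interferon-gamma on both copies (interferon-gamma-/-, called Ifng-null below) received PBS or IFN-γ. The control mice are of the Socs3 cross, and no group of the Ifng-null mice's own wild type was among the 12 arrays. The labels give no age, sex or dose, and do not say that the 2 arrays of a group came from separate mice. The p-values below therefore measure the spread between these arrays, which may be technical.

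The constitutive proteasome is a barrel, the 20S core, made of 4 stacked rings. The outer rings are built from alpha subunits (Psma genes) and the inner rings from beta subunits (Psmb genes), of which Psmb5, Psmb6 and Psmb7 carry the proteolytic sites. The 19S cap binds ubiquitinated proteins, and its ATPases (Psmc genes) unfold them and feed them into the core with the help of non-ATPase subunits (Psmd genes). Interferon-gamma is known for inducing Psmb8, Psmb9 and Psmb10, which take the places of Psmb5, Psmb6 and Psmb7 in newly built cores and form the immunoproteasome. It is also known for inducing PA28, an alternative cap built of Psme1 and Psme2. These forms favour peptides that fit MHC class I molecules, which the Tap1-Tap2 transporter carries into the endoplasmic reticulum. SOCS3 is a feedback inhibitor of IL-6 receptor signalling. Leukocytes also carry immunoproteasome in the resting state.

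The promoter windows of 4 immunoproteasome and PA28 genes, and of the constitutive counterparts Psmb5 and Psmb6, are shown first because the results below turn on the contrast between these groups. Each runs 5′ to 3′ along the gene's strand, from 250 bases before to 50 bases after the RefSeq start (GRCm38.p6), 300 bases in all. Capitals mark a match to 1 of 4 patterns searched on both strands. These were the palindrome TTCNNNGAA, TTC and GAA with 4 bases between them, an interferon response core of 2 GAAA blocks separated by 2 bases, and the antioxidant response core TGACNNNGC.
Psmb8, chr17:34197945-34198244, plus strand: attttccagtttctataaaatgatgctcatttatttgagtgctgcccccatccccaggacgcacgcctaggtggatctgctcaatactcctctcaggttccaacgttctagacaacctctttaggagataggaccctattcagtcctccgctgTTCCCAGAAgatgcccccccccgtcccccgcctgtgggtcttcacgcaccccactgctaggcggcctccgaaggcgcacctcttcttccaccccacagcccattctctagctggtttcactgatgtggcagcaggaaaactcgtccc
Psmb9, chr17:34187281-34187580, minus strand: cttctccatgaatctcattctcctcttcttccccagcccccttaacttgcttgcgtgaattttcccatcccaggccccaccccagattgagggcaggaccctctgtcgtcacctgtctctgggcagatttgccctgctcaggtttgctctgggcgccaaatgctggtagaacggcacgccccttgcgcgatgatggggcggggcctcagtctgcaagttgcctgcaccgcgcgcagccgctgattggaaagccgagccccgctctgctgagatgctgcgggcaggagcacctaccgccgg
Psmb10, chr8:105938343-105938642, minus strand: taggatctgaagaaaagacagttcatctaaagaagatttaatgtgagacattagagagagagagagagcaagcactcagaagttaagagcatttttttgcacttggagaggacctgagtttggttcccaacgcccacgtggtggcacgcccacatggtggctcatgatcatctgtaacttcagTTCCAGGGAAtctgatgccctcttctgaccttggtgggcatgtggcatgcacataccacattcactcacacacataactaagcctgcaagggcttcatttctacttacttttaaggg
Psme1, chr14:55578244-55578543, plus strand: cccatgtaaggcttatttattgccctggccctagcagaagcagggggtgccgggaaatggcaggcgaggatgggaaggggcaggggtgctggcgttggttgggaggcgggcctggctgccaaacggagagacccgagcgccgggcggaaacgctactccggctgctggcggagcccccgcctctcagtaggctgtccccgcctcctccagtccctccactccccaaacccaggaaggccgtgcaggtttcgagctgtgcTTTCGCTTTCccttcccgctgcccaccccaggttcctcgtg
Psmb5, chr14:54617946-54618245, minus strand: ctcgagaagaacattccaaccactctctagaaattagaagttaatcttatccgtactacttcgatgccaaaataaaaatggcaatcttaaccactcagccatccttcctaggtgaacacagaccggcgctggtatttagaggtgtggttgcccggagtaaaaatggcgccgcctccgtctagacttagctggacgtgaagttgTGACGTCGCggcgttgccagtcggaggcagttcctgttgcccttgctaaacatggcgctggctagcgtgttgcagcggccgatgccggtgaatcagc
Psmb6, chr11:70525107-70525406, plus strand: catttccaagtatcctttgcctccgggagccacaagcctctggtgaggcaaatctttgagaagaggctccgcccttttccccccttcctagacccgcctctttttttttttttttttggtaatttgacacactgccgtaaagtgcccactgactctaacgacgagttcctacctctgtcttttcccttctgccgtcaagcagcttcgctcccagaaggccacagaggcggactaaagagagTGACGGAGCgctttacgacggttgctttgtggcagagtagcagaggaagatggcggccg

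Psmb8 held the palindrome as TTCCCAGAA, 97 bases before its start, and Psmb10 held the form with 4 bases between TTC and GAA as TTCCAGGGAA, 67 bases before its start. Psme1 held the interferon response core just inside the transcript, as TTTCGCTTTC at position 10 after the start. The Psmb9 window held none of the 4 patterns. It shares 275 bases with the window of Tap1, which is transcribed in the opposite direction from the same stretch of chromosome 17, where RefSeq gives the order Psmb9, Tap1, Psmb8, Tap2. The 2 counterparts shown both held the antioxidant response core, Psmb5 as TGACGTCGC 47 bases before its start and Psmb6 as TGACGGAGC 9 bases before its start. Windows, 39 in all, were found for 36 of the 42 member genes, and Psmb7 was not among them. A member gene counted if any of its windows held a match, whereas the shares set beside the members are of single windows. The palindrome was in 2 of these 36 genes (5.56%), Psmb8 and the 19S subunit Psmd2, against 8.3% of all 32851 windows. The form with 4 bases between was in 1 of the 36 (2.78%) against 6.95% of all windows. The interferon response core was in 4 genes (11.1%), Psme1, Psmb3, Psmd4 and Psmd9, against 3.44% of windows. The antioxidant response core was in 6 (16.7%), Psmb5, Psmb6, Psmc6, Psmd12, Psmd9 and Psme4, against 12.4%. A match describes letters in the window and is no measure of binding.

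The deposited values are signal intensities on a linear scale, and array medians lay between 80.6 and 85.6. A floor of 33 (the 25th percentile of all intensities) replaced lower values before log2 was taken, and 9641 probe sets above it on at least 2 arrays were tested. Of the members, 47 probe sets of 40 genes were tested, and all 47 lay above the floor on all 12 arrays. The other 6 lay below it on all 12: Psmc3ip, the only probe set of Psmc4, and further probe sets of Psme1, Psmc5, Psmb1 and Psmb4. Of the deleted genes, Socs3 read 74.4 to 106 on the 4 arrays of Socs3-deleted mice and 114 to 167 on the other 8 with its brighter probe set. Ifng lay below the floor on all 12 arrays, between 6.37 and 7.81, so its probe set checks no label. The 13 hepatocyte markers on the array were all above the floor. Control PBS replicate 2 and Socs3-deleted PBS replicate 2 carried pancreatic enzyme signal (summed intensities of 8 genes 8727 and 20454, against 1447 to 1701 on the other 10 arrays). A member is called where limma's adjusted p (Benjamini-Hochberg over the 9641 probe sets) was under 0.05. Within a 2 against 2 comparison an exact permutation test cannot go below p = 0.333.

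**Figure D1:**
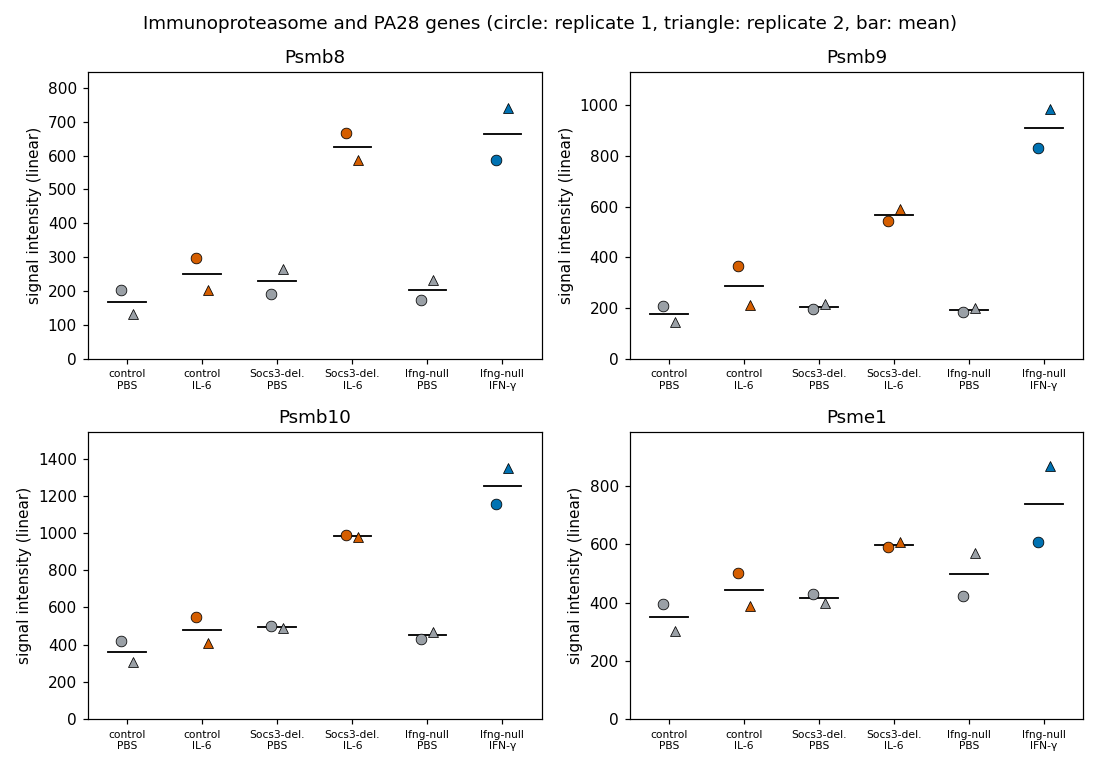
Signal intensity (linear scale, axes from 0) of Psmb8, Psmb9, Psmb10 and Psme1 in the 6 groups; circles are replicate 1, triangles replicate 2 and bars group means (n = 2). For Psmb8, Psmb9 and Psmb10 the 4 arrays of IFN-γ and of IL-6 in Socs3-deleted mice stand above the other 8, while Psme1 has smaller gaps.

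The first question was what IFN-γ did to these genes in livers that make none of their own. The 3 catalytic subunits of the immunoproteasome rose together, Psmb9 most, while their constitutive counterparts overlapped between groups on their brighter probe sets. Psmb9, which replaces Psmb6, read 186 and 202 on the PBS arrays of Ifng-null mice and 831 and 987 on the IFN-γ arrays. Its mean went from 194 ± 11.5 to 909 ± 110 (SD, n = 2), a 4.68-fold rise (log2 change 2.23 ± 0.24 SE, limma adjusted p = 0.00333). Psmb8, which replaces Psmb5, read 175 and 232 after PBS and 587 and 740 after IFN-γ. It rose 3.27-fold (1.71 ± 0.27, limma adjusted p = 0.025). Psmb10, which replaces Psmb7, read 431 and 468 after PBS and 1158 and 1350 after IFN-γ. It rose 2.78-fold (1.48 ± 0.17, limma adjusted p = 0.006). For each of the 3, both IFN-γ arrays lay above both PBS arrays by more than either pair's own gap.

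Psme1, the PA28 alpha subunit, read 424 and 571 after PBS and 610 and 868 after IFN-γ. The groups did not overlap, but the lower IFN-γ array was close to the higher PBS array. Its log2 change of 0.56 ± 0.22 (95% interval 0.08 to 1.05) did not pass (limma adjusted p = 0.591). Of the 47 member probe sets, 3 were called higher and none lower, against 0.612% of all probe sets called higher. Psmb9, Psmb8 and Psmb10 were the 3, and 6 members had an unadjusted p under 0.05. The call rests on few arrays: the member count was 1 without Ifng-null PBS replicate 1 or without Ifng-null IFN-γ replicate 2, and 0 when only the 4 arrays compared were fitted or when no filter on low values was used. Psmb8 was called in 13 of 23 alternatives. It missed also with array weights (limma adjusted p = 0.132), without the 2 arrays with pancreatic signal (0.0629), and without any 1 of the 4 Ifng-null arrays or the 2 arrays of IL-6 in Socs3-deleted mice (0.0561 to 0.27). The log2 changes kept their sign in all 23 alternatives, within 2.10 to 2.35 for Psmb9, 1.51 to 1.91 for Psmb8 and 1.37 to 1.59 for Psmb10.

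The constitutive catalytic subunits moved little. Psmb5, the chymotrypsin-like site, read 400 and 670 after PBS and 382 and 630 after IFN-γ on its brighter probe set (log2 change -0.08 ± 0.29). Its other probe set read 288 and 290 after PBS and 280 and 258 after IFN-γ, lower on both IFN-γ arrays but not called. Psmb6, the caspase-like site, read 552 and 706 after PBS and 573 and 735 after IFN-γ (0.06 ± 0.17). Psmb7, the trypsin-like site, read 437 and 655 after PBS and 387 and 607 after IFN-γ (-0.14 ± 0.27). The PBS and IFN-γ arrays of all 3 genes overlapped on the brighter probe sets, and none passed (limma adjusted p = 1). The 95% intervals, -0.74 to 0.59 for Psmb5, -0.34 to 0.45 for Psmb6 and -0.75 to 0.46 for Psmb7, leave room for changes of either sign but lie below those of Psmb8, Psmb9 and Psmb10 (1.11 to 2.31, 1.68 to 2.77 and 1.09 to 1.87).

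**Figure D2:**
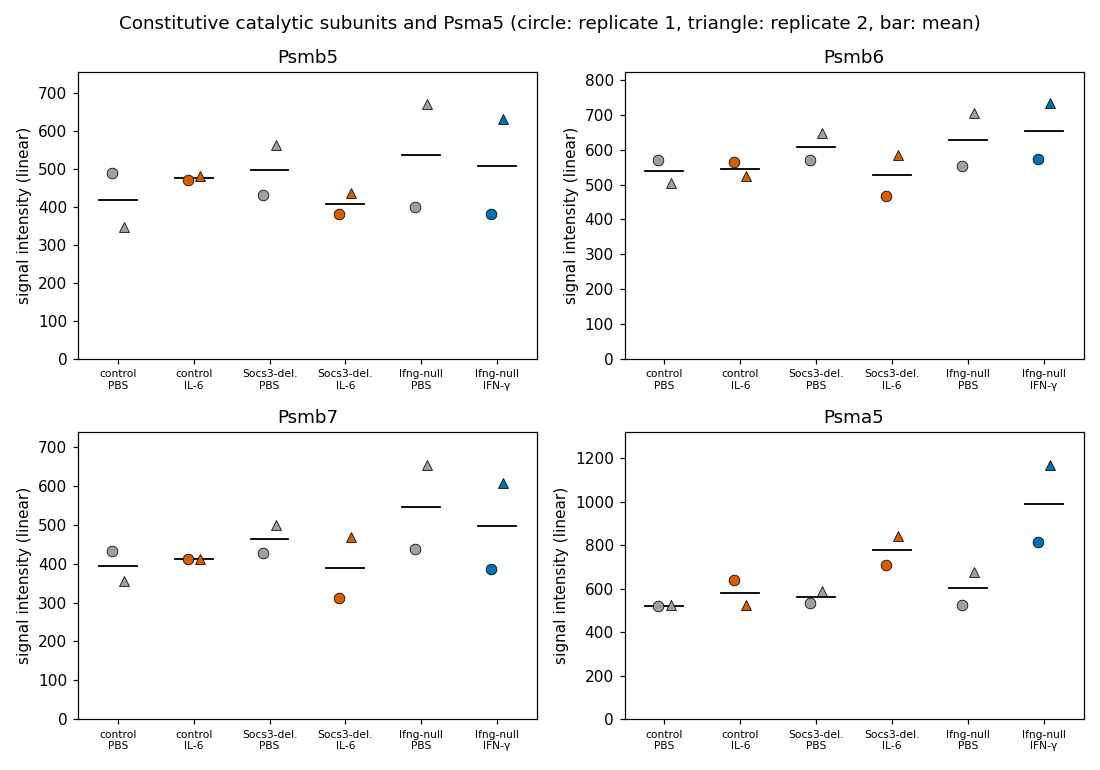
Signal intensity (linear scale, axes from 0) of Psmb5, Psmb6, Psmb7 and Psma5 in the 6 groups; circles are replicate 1, triangles replicate 2 and bars group means (n = 2). The 3 catalytic subunits show overlapping groups after IFN-γ and PBS, with replicate 2 above replicate 1 in both Ifng-null groups; Psma5 reads highest after IFN-γ.

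Among the other constitutive genes the alpha ring stood highest after IFN-γ. Psma5 read 526 and 676 after PBS and 813 and 1168 after IFN-γ, a log2 change of 0.71 ± 0.19 that did not pass (limma adjusted p = 0.28). Psma7 read 403 and 433 after PBS and 600 and 633 after IFN-γ (0.56 ± 0.18, limma adjusted p = 0.454). In both genes the groups did not overlap. The 7 alpha genes ran from -0.12 for Psma6 to Psma5's 0.71, with a median of 0.28, and none was called. The other 4 beta genes, which have no proteolytic site of their own, ran from -0.06 for Psmb2 to 0.09 for Psmb1. The 5 ATPases of the 19S cap that were tested ran from -0.04 for Psmc5 to 0.09 for Psmc6. The 11 non-ATPase genes ran from -0.22 for Psmd13, a lid subunit, to 0.13 for Psmd2, a scaffold of the base. The 3 chaperones that help build the 19S base ran from -0.13 for Psmd5 to -0.05 for Psmd9. Psme3, which builds the nuclear PA28 cap, read -0.13, and Psme4, a single-chain cap also called PA200, read -0.21.

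Over the 42 constitutive probe sets the median log2 change after IFN-γ was -0.02, with a range from -0.22 to 0.71, beside -0.03 over all probe sets tested. The 4 immunoproteasome and PA28 probe sets had a median of 1.59. Each of the 4 lay higher on both IFN-γ arrays than on both PBS arrays. Of the constitutive probe sets 3 did so (7.14%) and 3 lay lower on both (7.14%). Among all probe sets 9.80% lay higher and 17.4% lower in this way. None of the 42 was called in either direction, and the 35 constitutive genes split into 17 with a positive and 18 with a negative change.

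**Figure D3:**
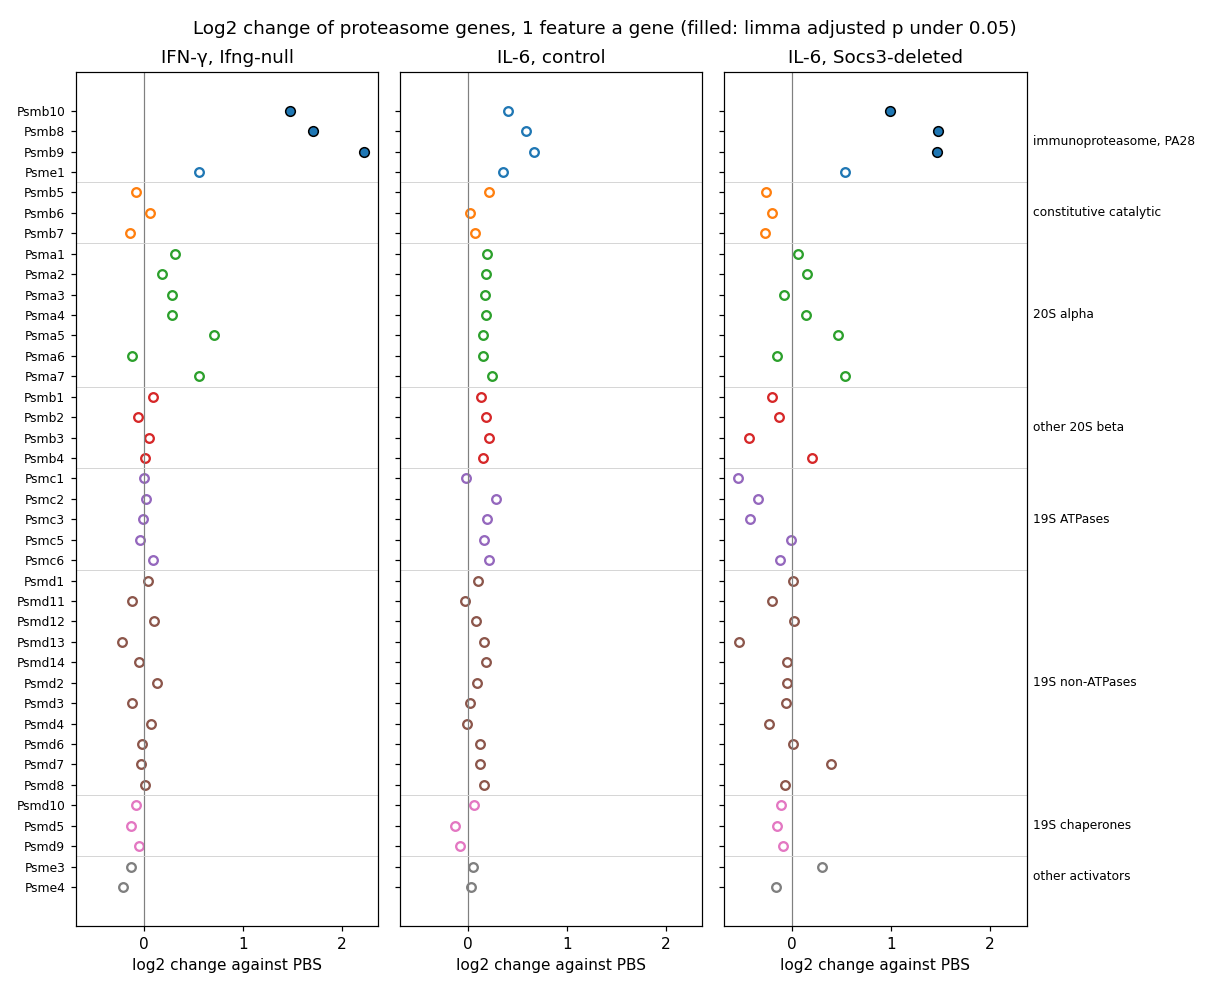
Log2 change against PBS (horizontal axes) of the 39 proteasome genes tested, 1 probe set a gene, grouped by role, for IFN-γ in Ifng-null mice, IL-6 in control mice and IL-6 in Socs3-deleted mice; filled points are called by limma. Filled points appear only for Psmb8, Psmb9 and Psmb10 in the first and last panel, and constitutive genes lie between -0.55 and 0.71.

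The second question was whether IL-6 reached the same genes, and in which mice. In control mice no member was called after IL-6, and the immunoproteasome genes had small positive changes. Psmb9 read 209 and 147 after PBS and 366 and 212 after IL-6 (log2 change 0.67 ± 0.24, limma adjusted p = 1). The groups did not overlap, but 212 and 209 nearly met. Psmb8 read 204 and 133 after PBS and 297 and 202 after IL-6 (0.58 ± 0.27), so the groups overlapped. Psmb10 read 417 and 306 against 547 and 408 (0.40 ± 0.17), and Psme1 read 397 and 303 against 503 and 387 (0.35 ± 0.22), both with overlap. For all 4 genes replicate 1 was the higher array of both groups. The median of the 4 was 0.49, and 0.22 without control PBS replicate 2. Psmb9 ranged from 0.28, without control IL-6 replicate 1, to 1.06, without control IL-6 replicate 2, and Psmb8 from 0.27 to 0.88. Of the counterparts, Psmb5 read 488 and 347 after PBS and 471 and 480 after IL-6 on its brighter probe set (0.21 ± 0.29). Psmb6 read 571 and 504 against 566 and 524 (0.02 ± 0.17), and Psmb7 read 432 and 356 against 412 and 413 (0.07 ± 0.27).

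Of all 9641 probe sets limma called 0% in this comparison (248 had an unadjusted p under 0.05, 2 of them members), so a lack of calls says little about the members. The constitutive probe sets had a median log2 change of 0.12 (range -0.15 to 0.28), beside -0.01 over all probe sets. Of these, 12 of 42 (28.6%) lay higher on both IL-6 arrays and 3 (7.14%) lower on both, while 13.0% and 14.6% of all probe sets did so. The constitutive median was 0.02 without control PBS replicate 2, the array with pancreatic signal. On that array 5 erythroid genes also summed to 7265, against 1339 on replicate 1. They summed to 4476 on control IL-6 replicate 2, against 1264 on its replicate 1. In Socs3-deleted mice, compared below, the same genes summed to 2597 and 5633 after PBS and 869 and 4384 after IL-6. The part of these pancreatic and erythroid signals in the result was not tested. All 7 alpha genes had positive changes, from 0.15 to 0.24, and 30 of the 35 constitutive genes did.

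In Socs3-deleted mice the 3 catalytic subunits of the immunoproteasome rose after IL-6, and none of their counterparts was called. Psmb8 read 192 and 266 after PBS and 666 and 587 after IL-6, from a mean of 229 ± 52.4 to 627 ± 55.4 (SD, n = 2). This was a 2.77-fold rise (log2 change 1.47 ± 0.27, limma adjusted p = 0.0352). Psmb9 read 197 and 215 after PBS and 544 and 589 after IL-6, a 2.75-fold rise (1.46 ± 0.24, limma adjusted p = 0.0246). Psmb10 read 499 and 490 after PBS and 989 and 980 after IL-6, a 1.99-fold rise (0.99 ± 0.17, limma adjusted p = 0.0295). In each gene the gap between groups was several times the gap between replicates. Psme1 read 431 and 399 after PBS and 590 and 608 after IL-6, without overlap, but did not pass (0.53 ± 0.22, limma adjusted p = 0.403).

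These 3 were the only members called of 47, all higher, beside 1.03% of all probe sets called higher, and 10 members had an unadjusted p under 0.05. The count of members called was 0 without Socs3-deleted PBS replicate 1, without Socs3-deleted PBS replicate 2, without Socs3-deleted IL-6 replicate 1 or without Socs3-deleted IL-6 replicate 2. It was 1 without Ifng-null PBS replicate 1 or 2, which enter only through the shared estimate of the spread, and 0 without the 2 arrays with pancreatic signal, with only the 4 arrays compared or with no filter. The log2 changes stayed within 1.23 to 1.70 for Psmb8, 1.40 to 1.52 for Psmb9 and 0.98 to 1.06 for Psmb10 in all 23 alternatives. With the replicate number as a block the count was 2, as Psmb8 reached a limma adjusted p of 0.0546. With the number as a block within each line it was 4, as Psme1 passed (limma adjusted p = 0.0428).

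The counterparts in these mice had negative, uncalled changes. Psmb5 read 430 and 562 after PBS and 380 and 437 after IL-6 (log2 change -0.27 ± 0.29). Psmb6 read 569 and 648 against 468 and 586 (-0.21 ± 0.17), and Psmb7 read 428 and 501 against 312 and 468 (-0.28 ± 0.27). All 3 overlapped between groups.

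The 5 ATPases of the 19S cap were all on the negative side after IL-6 in Socs3-deleted mice, with a median of -0.35. They ran from -0.55 ± 0.20 for Psmc1 (270 and 288 after PBS, 156 and 231 after IL-6, limma adjusted p = 0.33) to -0.01 for Psmc5. Among non-ATPase genes Psmd13 was lowest, at 166 and 188 after PBS and 94.3 and 158 after IL-6 (-0.54 ± 0.23, limma adjusted p = 0.43). Psmd7, another lid subunit, was highest at 0.39. In both Psmc1 and Psmd13 the IL-6 arrays lay below the PBS arrays, with IL-6 replicate 1 the lowest of all 12 arrays. The alpha ring again held the high end of the core. Psma7 read 445 and 529 after PBS and 804 and 608 after IL-6 (0.53 ± 0.18, limma adjusted p = 0.298), and Psma5 read 533 and 590 against 711 and 841 (0.46 ± 0.19, limma adjusted p = 0.411). Psma6 was the lowest alpha gene at -0.16. The other beta genes ran from -0.44 for Psmb3 to 0.20 for Psmb4, and the chaperones from -0.16 for Psmd5 to -0.09 for Psmd9. Of the other caps, Psme3 had 0.30 ± 0.12 (limma adjusted p = 0.384) and Psme4 -0.17.

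Over the 42 constitutive probe sets the median was -0.09 (range -0.55 to 0.53), beside 0 over all probe sets and 1.23 over the 4 of the immunoproteasome and PA28. Of the constitutive probe sets 7 (16.7%) lay higher on both IL-6 arrays and 13 (31%) lower on both, and none was called. Among all probe sets 19.6% and 21.5% did so. Of the 35 constitutive genes 24 had a negative change.

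Whether IL-6 acted more on these genes where Socs3 was deleted was tested as a difference of responses. Psmb8 responded more in Socs3-deleted mice by 0.89 ± 0.38 on the log2 scale (95% interval 0.04 to 1.74), Psmb9 by 0.79 ± 0.34 (0.02 to 1.56) and Psmb10 by 0.59 ± 0.25 (0.04 to 1.14). These were the 3 members with an unadjusted p under 0.05, and none passed over all probe sets (limma adjusted p = 0.999), of which 0.0415% were called. Psme1 differed by 0.18 ± 0.31. Single control arrays moved these values. Psmb8 was 0.59 without control PBS replicate 1 and 1.44 without both arrays with pancreatic signal. Psmb9 was 0.40 without control IL-6 replicate 2 and 1.18 without control IL-6 replicate 1, and Psmb10 ranged from 0.37 to 0.81. The constitutive probe sets had a median difference of -0.17, with 34 of 42 negative, beside 0.01 over all probe sets; the 5 ATPases were all negative with a median of -0.54. The constitutive median was -0.09 without control PBS replicate 2 and -0.05 without both arrays with pancreatic signal. 

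After IL-6, Psmb10 was called 2.08-fold higher in Socs3-deleted than in control mice (989 and 980 against 547 and 408, log2 difference 1.06 ± 0.17, limma adjusted p = 0.0266). Psmb8 was 2.55-fold higher (1.35 ± 0.27) at a limma adjusted p of 0.0568, and Psmb9 2.03-fold higher (1.02 ± 0.24) at 0.113. For all 3, and for Psme1 (0.44 ± 0.22), both arrays of Socs3-deleted mice lay above both of the control mice. Macrophage and pan-leukocyte markers stood higher in the same comparison. Of 13 macrophage and Kupffer cell markers 11 (84.6%) lay higher on both arrays of Socs3-deleted mice (median 0.43; sums 6355 and 4939 against 3733 and 3714), with Cd14 called (1.44 ± 0.13, limma adjusted p = 0.000868). Of 9 pan-leukocyte markers tested 7 (77.8%) did so (median 0.13), beside 17.9% of all probe sets. The other leukocyte lists did not follow as a whole. Of T and NK cell markers 1 of 6 lay higher in this way, of B cell markers 0 of 8 and of dendritic cell markers 1 of 4. Neutrophil markers had 2 of 9 higher and 4 of 9 (44.4%) lower, beside 23.2% of all probe sets lower. The part of these cells in the result was not tested. Psma7 was the constitutive gene farthest above (0.68 ± 0.18, limma adjusted p = 0.183). Psmb10 was the only member called, beside 0.861% of all probe sets called higher, and 4 members had an unadjusted p under 0.05. The count of members called was 0 without control IL-6 replicate 2, without any 1 of the 4 arrays of Socs3-deleted mice, or without Ifng-null PBS replicate 1 or 2. It was 2 without control IL-6 replicate 1, and 3 with the replicate number as a block within each line, when Psmb8 and Psmb9 passed too (limma adjusted p = 0.0247 and 0.0162). Of the 42 constitutive probe sets, 7 (16.7%) lay higher and 9 (21.4%) lower on both arrays of Socs3-deleted mice, beside 17.9% and 23.2% of all probe sets.

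After PBS the lines were closer, and no member was called between them. Against control mice, the immunoproteasome genes of Socs3-deleted mice had log2 differences of 0.47 ± 0.17 for Psmb10, 0.46 ± 0.27 for Psmb8, 0.26 ± 0.22 for Psme1 and 0.23 ± 0.24 for Psmb9 (limma adjusted p = 0.951 for each). Of all probe sets 0% were called, with 402 at an unadjusted p under 0.05, 2 of them members. The constitutive probe sets had a median difference of 0.14: 18 of 42 (42.9%) lay higher on both arrays and 3 (7.14%) lower, beside 15.9% and 18.4% of all probe sets. Without control PBS replicate 2 that median was 0.05, and without both PBS arrays that carried pancreatic signal it was 0.02. The immunoproteasome median, 0.36, fell further, to 0.11 and to 0.02. Of 13 macrophage and Kupffer cell markers 8 (61.5%) also lay higher on both arrays, beside 15.9% of all probe sets, and all were positive (median 0.32). Other leukocyte lists went the other way. Of B cell markers 4 of 8 lay lower on both arrays, of T and NK cell markers 3 of 6, of dendritic cell markers 2 of 4 and of neutrophil markers 4 of 9. Pan-leukocyte markers had 1 of 9 higher and 1 lower. The part of these cells in the result was not tested.

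Ifng-null against control mice after PBS gave log2 differences of 0.51 ± 0.22 for Psme1, 0.33 ± 0.17 for Psmb10, 0.29 ± 0.27 for Psmb8 and 0.14 ± 0.24 for Psmb9 (limma adjusted p = 0.873 or more). All 4 differences were positive with all arrays. Without control PBS replicate 2 they were 0.31 for Psme1, 0.11 for Psmb10, -0.01 for Psmb8 and -0.11 for Psmb9, and their median fell from 0.31 to 0.05. Of all probe sets 0% were called (297 at an unadjusted p under 0.05, 4 of them members). The 95% interval for Psmb9, -0.40 to 0.69, and that for Psmb8, -0.31 to 0.89, include differences of either sign. The constitutive median was 0.19, with 13 of 42 (31%) higher and none lower on both arrays, beside 12.8% and 15.4% of all probe sets, and was 0.12 without control PBS replicate 2 and 0.06 without Ifng-null PBS replicate 2. These comparisons share their PBS arrays of control mice with each other and with the IL-6 comparison in control mice, so their values are not independent.

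IL-6 in Socs3-deleted mice and IFN-γ in Ifng-null mice share no array, and the difference between these responses was tested as well. Psmb9 responded less to IL-6, by -0.77 ± 0.34 on the log2 scale (95% interval -1.54 to 0.01), and Psmb10 by -0.48 ± 0.25 (-1.04 to 0.07). Psmb8 differed by -0.24 ± 0.38 (-1.09 to 0.61) and Psme1 by -0.03 ± 0.31 (-0.72 to 0.66). No member was called (limma adjusted p = 1), beside 0.0207% of all probe sets. An unadjusted p under 0.05 was found for 300 of all probe sets, and for 1 member. The intervals of the genes named above all include differences of either sign, so that member was not among them. Over the 35 constitutive genes the differences ran from -0.55 for Psmc1 to 0.43 for Psme3, and 27 were negative. The mouse line and the cytokine both differ between these responses and cannot be told apart.

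Genes that work next to the proteasome were read from 4 further lists. Of 11 genes for class I peptide loading, 1 was called in each of the comparisons that called immunoproteasome genes. This was Tap1, which shares the promoter region with Psmb9: it had a log2 change of 2.63 ± 0.24 after IFN-γ (limma adjusted p = 0.00149), 2.25 ± 0.24 after IL-6 in Socs3-deleted mice (0.00321) and 0.85 after IL-6 in control mice, where it was not called. Tap2, the partner of Tap1 in the transporter, had 0.81 ± 0.21 after IFN-γ (limma adjusted p = 0.245). Of 9 interferon regulators, the transcription factor Irf8 was called after IFN-γ (1.88 ± 0.12, limma adjusted p = 0.000142). It was not called after IL-6 in Socs3-deleted mice (0.24), and the difference between these responses was called (-1.64 ± 0.17, limma adjusted p = 0.0148). After IL-6 in Socs3-deleted mice the calls were Irf7, a factor of the type I interferon response (1.72 ± 0.26, limma adjusted p = 0.0144), and the kinase Jak2 (0.76 ± 0.09, limma adjusted p = 0.00608). Neither was called after IFN-γ, where Irf7 had 1.23 ± 0.26 (limma adjusted p = 0.107) and Jak2 0.20 ± 0.09 (limma adjusted p = 0.731). Irf1, a factor known to act on Psmb9, had 1.59 ± 0.30 after IFN-γ (limma adjusted p = 0.0595), against 0.40 ± 0.30 for IL-6 in Socs3-deleted mice.

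Among 9 genes of proteasome assembly and regulation none was called in any of the 8 comparisons. The largest changes after IFN-γ were 0.21 for Psmg4, an assembly chaperone of the core, and 0.15 for Ecpas, which binds the 26S proteasome; Pomp, the maturation factor that immunoproteasome assembly uses, had 0.14 ± 0.16. Among 11 genes of ubiquitin conjugation and shuttling none was called either. The largest changes there after IFN-γ were 0.59 ± 0.12 for Ube2l6, the conjugating enzyme of the ubiquitin-like ISG15 (limma adjusted p = 0.101), and -0.40 for the shuttle factor Ubqln1.

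Leukocyte markers were read beside the immunoproteasome genes, since whole liver holds immune cells; in such bulk RNA, fewer cells of a type and less RNA per cell cannot be told apart. The 10 pan-leukocyte markers on the array, of which Itgb2 lay below the floor on all arrays, summed to 1752 and 1778 after PBS and 1661 and 1924 after IFN-γ in Ifng-null mice. In Socs3-deleted mice they summed to 1835 and 1739 after PBS and 1972 and 1919 after IL-6. None of these markers was called in either comparison. The 13 macrophage and Kupffer cell markers summed to 3406 and 4450 after PBS and 3270 and 5061 after IFN-γ, with Fcgr1 called (0.97 ± 0.12, limma adjusted p = 0.00796). In Socs3-deleted mice they summed to 4060 and 4730 after PBS and 6355 and 4939 after IL-6, with Cd14 called (1.34 ± 0.13, limma adjusted p = 0.00121). Of 12 T and NK cell markers on the array 6 lay below the floor on all arrays (Cd3d, Cd3g, Cd8a, Cd8b1, Gzma and Ncr1), and none of the rest was called. No B cell, neutrophil, dendritic cell or endothelial marker was called after either cytokine. Even so, several leukocyte lists lay higher on both IL-6 arrays of Socs3-deleted mice more often than all probe sets (19.6%). Of T and NK cell markers 4 of 6 tested (66.7%, median 0.15) did so, and of pan-leukocyte markers 4 of 9 (44.4%). For dendritic cell, B cell and macrophage markers it was 2 of 4 (50%), 3 of 8 (37.5%) and 4 of 13 (30.8%). Neutrophil and endothelial markers had 22.2% and 11.1%. After IFN-γ these shares were 0% to 25%, beside 9.80%. Hepatocyte markers moved the other way from the immunoproteasome genes. All 13 on the array had negative changes after IFN-γ (median -0.26, none called), and 9 of them (69.2%) lay lower on both IFN-γ arrays, beside 17.4% of all probe sets. In Socs3-deleted mice given IL-6, 12 of 13 were negative (median -0.30), 10 (76.9%) lay lower on both arrays, beside 21.5% of all probe sets, and Hpd, an enzyme of tyrosine breakdown, was called lower (-0.57 ± 0.11, limma adjusted p = 0.046). The part of these cells in the result was not tested.

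**Figure D4:**
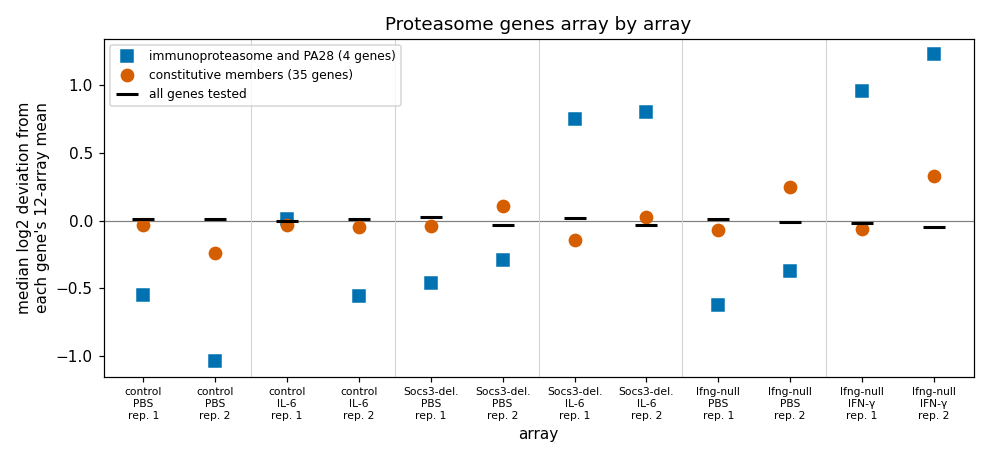
Median log2 deviation of each array from each gene's own mean over the 12 arrays, for the 4 immunoproteasome and PA28 genes (squares), the 35 constitutive genes (circles) and all genes tested (bars). Squares lie at 0.75 to 1.23 on the 4 arrays of IL-6 in Socs3-deleted mice and of IFN-γ; circles are highest on replicate 2 of both Ifng-null groups and lowest on replicate 2 of the control PBS group.

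Array by array, the constitutive genes moved together between replicates in some groups. Ifng-null PBS replicate 2 and Ifng-null IFN-γ replicate 2 each had 32 of the 35 constitutive genes above their own 12-array mean, with median deviations of 0.25 and 0.33 on the log2 scale. Control PBS replicate 2 had 3 of 35 above, with a median of -0.24. The other 9 arrays had 8 to 24 above, with medians from -0.14 to 0.11, and over all genes the array medians stayed within -0.05 to 0.03. Replicate 2 read higher than replicate 1 for 33 of 35 genes after PBS in Ifng-null mice (median difference 0.35) and for 34 of 35 after IFN-γ (0.34). Over all genes 48.6% and 46.9% did so. In the Socs3-deleted pairs 27 of 35 (PBS, median 0.13) and 26 of 35 (IL-6, 0.17) did so, beside 37.8% and 39.8% of all genes. The control IL-6 pair split, with 16 of 35 (median -0.02) beside 52%. In control PBS mice 6 of 35 did so (median -0.19), beside 46.3% of all genes. Psmb6, for example, read 552 and 706 in the Ifng-null PBS pair and 573 and 735 in the IFN-γ pair, and 571 and 504 in the control PBS pair. The dimmer probe set of Psmb5 did not follow, at 288 and 290 after PBS in Ifng-null mice, where the brighter read 400 and 670. Immunoproteasome and PA28 genes shifted as well. Replicate 2 was higher for 4 of 4 in both Ifng-null pairs (medians 0.26 and 0.29). It was higher for 0 of 4 in both control pairs (-0.48 after PBS, -0.49 after IL-6) and for 2 of 4 in both Socs3-deleted pairs.

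Without Ifng-null PBS replicate 2 the constitutive median after IFN-γ was 0.17, and without Ifng-null IFN-γ replicate 2 it was -0.15, where the full set gave -0.02. The immunoproteasome median was 1.45 to 1.73 over all alternatives. The immunoproteasome genes deviated by -1.04 to -0.29 on the 6 PBS arrays, by 0.01 and -0.56 on the IL-6 arrays of control mice, by 0.75 and 0.80 on those of Socs3-deleted mice and by 0.96 and 1.23 on the IFN-γ arrays. All 4 genes lay above their own mean on each array of the last 2 groups.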

How the data were processed

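Liver RNA from 12 samples, grouped 2 by 2 from the sample labels into 6 groups, was hybridised to Affymetrix mouse arrays. The authors' deposited table holds linear signal intensity values, 1 for each probe set on each array, made by a method not stated in the labels. Array medians were alike, so values were used as deposited. 66 control probe sets were left out. Intensities were floored at 33 and log2 taken; probe sets above the floor on at least 2 arrays were tested. R 4.3.3 and limma 3.58.1 fitted 6 group means to all 12 arrays (lmFit, contrasts.fit, eBayes; 6 residual and 3.38 prior degrees of freedom), two-sided, with Benjamini-Hochberg adjustment over 9641 probe sets and a threshold of 0.05, in 8 comparisons. The code was tested on simulated data. The number of arrays limits the precision.

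Symbols came from the platform annotation (10833 probe sets with 1 symbol, 396 with several, the rest with none), and probe sets with several symbols named no gene. Of the member probe sets, 13 carry a suffix for shared or reduced oligos, among them those of Psmb7 and the brighter one of Psmb5, so related transcripts may add to them. For counts of genes the probe set with the highest mean stood for a gene. Named with values on every array, on their brighter probe sets, were the immunoproteasome and PA28 genes and Psmb5, Psmb6 and Psmb7. Also named were every called member, the highest and lowest gene of each class after IFN-γ and after IL-6 (Socs3-deleted mice) and, of other lists, called genes or the 2 largest changes; Psma5, Psma7, Psmc1 and Psmd13 were shown by array, and Tap2, Irf1 and Pomp named, after their values were seen. The members and lists were chosen with earlier results of these data known. Promoter sequences are RefSeq's for GRCm38.p6.

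Alternatives were floors at other percentiles, other filters, quantile normalization, array weights, eBayes with a trend in intensity, fits to only those arrays that a comparison uses, a replicate block, leaving out the 2 arrays with pancreatic signal and leaving out each array. A replicate block within each line and a crossed block were chosen after seeing the data. The replicate numbers are not stated to pair samples.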

Additional observations from a re-analysis of the deposited data

How the results depend on the processing

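No called member changed sign in any alternative, but uncalled values did. The constitutive median after IFN-γ ran from -0.15 to 0.18 and that of the difference between IL-6 (Socs3-deleted) and IFN-γ from -0.26 to 0.07; 13 medians and 167 values of named members, over all settings, moved beyond their spread. The count of members called after IFN-γ, 3, was 0 with no filter on low values and 0 in the fit to compared arrays alone, and 1 to 3 when each array was left out; it was 2 with array weights and 2 once the arrays with high Prss2 were dropped, as Psmb8 was lost. The count after IL-6 in Socs3-deleted mice, also 3, was 0 with no filter on low values, 0 in the fit to compared arrays alone, 0 once the arrays with high Prss2 were dropped and 0 to 3 when each array was left out. Socs3-deleted against control mice after IL-6 called 1, against 2 with quantile normalization, 2 with the filter at 6 arrays, 2 with array weights, 3 with the replicate block within line, 0 with no filter on low values, 0 in the fit to compared arrays alone, 0 once the arrays with high Prss2 were dropped and 0 to 2 when each array was left out. The fit to compared arrays alone leaves 2 residual degrees of freedom; for the other settings the cause was not tested. The other comparisons called 0 members in all settings.

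The replicate differences of the 2 Ifng-null groups correlated at 0.66, those of the 2 control groups at 0.14 and of the 2 Socs3-deleted groups at 0.12, and labels state no pairing. The replicate block gave 3 calls after IFN-γ, 2 after IL-6 in Socs3-deleted mice and 1 between the lines after IL-6. The block within line gave 3, 4 (Psme1 added, limma adjusted p = 0.0428) and 3. A crossed block for Ifng-null against control mice after PBS, where the replicate differences correlated at -0.11, gave 0 calls. Signal over background limits Psmc4, which lay below the floor on all arrays.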
